A study of Ovis aries with 2 samples.

Results

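The miR-23, miR-27 and miR-24 miRNAs were examined in small RNA of extracellular vesicles from uterine luminal fluid (ULF) of sheep. Members were the mature miRNAs whose precursor is named mir-23a, mir-23b, mir-27a, mir-27b or mir-24 in the deposited counts, whatever the copy number of the precursor. This rule found 5 of the 81 mature miRNAs listed, and all 5 were listed in both libraries, among the 54 of pregnant and the 80 of cyclic ewes. The pregnant group was Rambouillet ewes mated to an intact ram and sampled on day 14 after mating. The cyclic group was Rambouillet ewes sampled on day 14 of the estrous cycle. In both groups vesicles were precipitated with ExoQuick-TC from fluid flushed out of the uterus, and the RNA of 4 ewes was pooled into 1 Ion Torrent library per group. The precipitate holds exosomes and larger microvesicles together, and in the pregnant library vesicles shed by the endometrium and by the conceptus cannot be told apart. There were therefore no replicates, and each comparison below is between 2 pooled libraries, with an interval that covers counting error only.

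MicroRNAs pair with messenger RNAs mainly through their seed, bases 2 to 8 of the mature strand, and repress them. In mammals the miR-23, miR-27 and miR-24 genes stand in a pair of clusters, one with miR-23a, miR-27a and a copy of miR-24, the other with miR-23b, miR-27b and a second copy of miR-24, and the miRNAs of a cluster are cut from a shared primary transcript. They are known from blood vessels, where miR-23 and miR-27 support vessel growth in mice, and from fat, muscle and immune cells. The authors propose that vesicles of uterine fluid carry miRNAs and other cargo between the endometrium and the trophectoderm, the outer layer of the conceptus. Transfer of the members was not measured here.

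The mature sequences against which the reads were counted are shown because the paralogs, miR-23a with miR-23b and miR-27a with miR-27b, differ by very few bases, which bears on comparisons within and between these pairs. They are the cattle sequences of miRBase release 19 as deposited, 5′ to 3′ in DNA letters, with the seed in capitals.
miR-23a: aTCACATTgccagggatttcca
miR-23b: aTCACATTgccagggattaccac
miR-27a: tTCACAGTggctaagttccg
miR-27b: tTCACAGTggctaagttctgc
miR-24: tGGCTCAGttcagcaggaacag

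The members fell into 3 seed groups. miR-23a and miR-23b shared the seed TCACATT and were the only 2 of the 81 listed sequences with it, and the same held for miR-27a and miR-27b with the seed TCACAGT. miR-24 had the seed GGCTCAG, which no other listed sequence had. Counted from 1 at the 5′ end, miR-23a and miR-23b were the same at 21 of 22 aligned bases and differed by T19A, after which miR-23b had 1 base more at its 3′ end. miR-27a and miR-27b were the same at 19 of 20 bases and differed by C19T, again with 1 base more in the b form. Each pair of paralogs was thus identical over its first 18 bases, so a read cut off before position 19 fits both. Between the families, miR-23a and miR-27a matched at 10 of 20 bases, and their seeds differed only by T7G.

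In the sheep gene annotation of ARS-UI_Ramb_v3.0, used here for names and neighbours, the genes MIR23A and MIR27A are next to each other, followed by ZSWIM4. MIR23B lies within the span of AOPEP, the gene of aminopeptidase O, which is also the host of this cluster in humans. Genes named MIR27B, MIR24, MIR24-1 or MIR24-2 were not found in this annotation. The b cluster and the place of miR-24 were thus not seen in sheep, and the clusters are taken from other mammals. The counted miR-24 sequence carries the precursor name mir-24-2, and in humans miR-24-2 is the copy of the a cluster. Both human copies give the same mature miR-24, and reads of a mature sequence cannot tell such copies apart.

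The pregnant library had 2809 mature miRNA counts in 119605 reads and the cyclic library 7921 counts in 94735 reads. Levels are given as raw counts and as the share of these mature miRNA counts, with an exact Clopper-Pearson 95% interval. In bulk vesicles a lower level can mean fewer vesicles with a miRNA or fewer copies in each, which cannot be told apart. A share can also be lower because other miRNAs took a larger part of the counts, so shares are not amounts. The reads carried no molecular identifiers and several can stem from 1 molecule, so that the intervals leave out part of the error.

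The 5 members together took a similar part of the mature miRNA counts in both libraries. They had 276 counts in the pregnant library, 9.83% of the total (8.75 to 11.0%), and 635 counts in the cyclic library, 8.02% (7.43 to 8.64%). The ratio of these shares was 1.23 (1.06 to 1.41), and it lay closer to 1 with edgeR's TMM (1.10, 0.952 to 1.27) and with DESeq2's size factors (1.05, 0.907 to 1.21), where the interval included 1. Of all reads of the library, the members took 0.231% in the pregnant library and 0.670% in the cyclic library. The members' share of all reads was thus lower in the pregnant library, while their share of mature miRNA counts was slightly higher.

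miR-23a, which represses mitochondrial glutaminase in human cells, was by far the most abundant member in both libraries. It had 159 counts in the pregnant library, 5.66% of mature miRNA counts (4.83 to 6.58%), and 379 counts in the cyclic library, 4.78% (4.33 to 5.28%). It ranked 3rd of the 54 miRNAs of the pregnant and 5th of the 80 of the cyclic library. The intervals of both libraries overlapped, and the pregnant share was 1.18 times the cyclic share (0.977 to 1.43). Counts this high narrow the interval, so that a 2-fold difference of miR-23a in mature miRNA share lay outside it in either direction.

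miR-23b, its paralog in the b cluster, had nearly the same raw count in both libraries, although the cyclic library held far more mature miRNA reads. The 33 counts of the pregnant library were 1.17% (0.810 to 1.65%) of its mature miRNA counts, and the 31 counts of the cyclic library were 0.391% (0.266 to 0.555%). These intervals did not overlap. miR-23b ranked 29th in pregnant and 46th in cyclic vesicles.

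**Figure D1:**
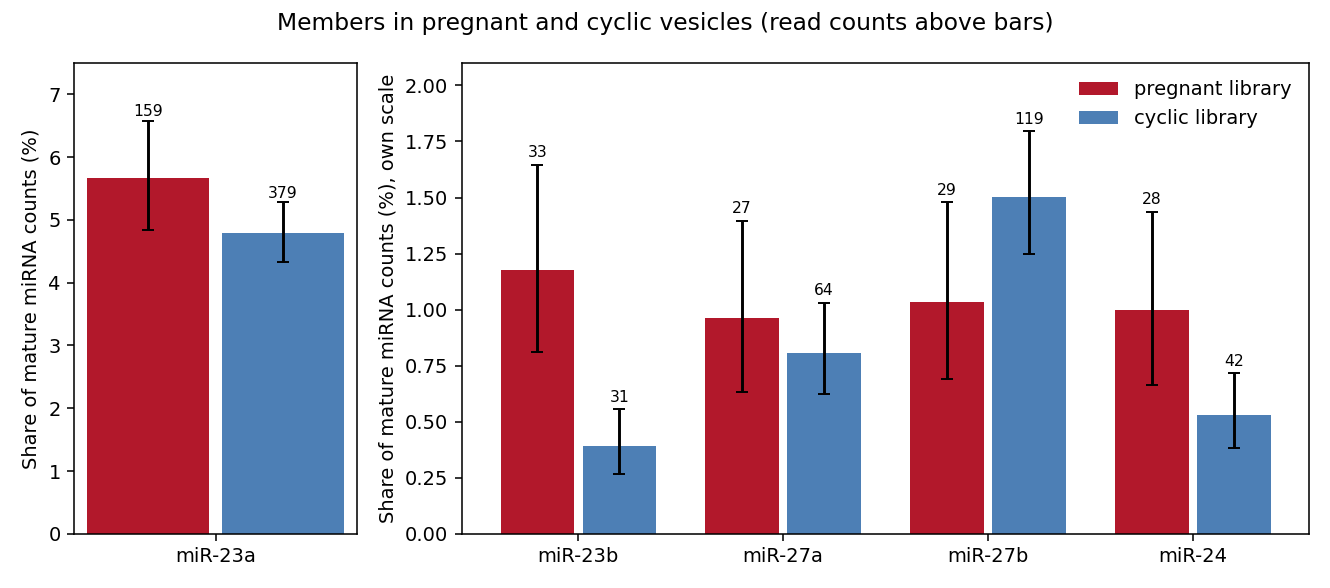
Share of mature miRNA counts in percent (vertical axis, one scale for miR-23a and another for the other members) in the pregnant (red, left) and the cyclic library (blue, right), with 95% Clopper-Pearson intervals for counting error and raw read counts above the bars. The intervals of miR-23b do not overlap between the libraries (0.810 to 1.65% in pregnant, 0.266 to 0.555% in cyclic), and miR-27b is the only member with the lower bar in the pregnant library.

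miR-27a, known in mice and humans as an inhibitor of fat cell formation through PPARG, had 27 counts in the pregnant library, 0.961% (0.634 to 1.40%), and 64 in the cyclic library, 0.808% (0.623 to 1.03%). The libraries overlapped in miR-27a, with a ratio of 1.19 (0.729 to 1.89). miR-27b, which shares the seed and therefore most predicted targets of miR-27a, had 29 counts in the pregnant library, 1.03% (0.692 to 1.48%), and 119 counts in the cyclic library, 1.502% (1.25 to 1.80%). It was the only member with a smaller share in the pregnant library. Its ratio was 0.687 with an interval of 0.441 to 1.04, which included 1. With TMM the ratio was 0.617 (0.396 to 0.932) and with DESeq2's size factors 0.588 (0.378 to 0.888), both below 1 but within 2-fold. Whether the interval of miR-27b included 1 thus depended on the scaling. Exact matches alone were 4 for pregnant and 37 for cyclic vesicles. As shares of all exact matches, 308 in pregnant and 776 in cyclic vesicles, the ratio of miR-27b was 0.272 (0.0705 to 0.758). This ratio was past 2-fold and its interval lay below 1, but the interval reached within 2-fold.

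miR-24, which represses MYC and other cell cycle genes in human cells, had 28 counts in the pregnant library, 0.997% (0.663 to 1.44%), and 42 counts in the cyclic library, 0.530% (0.382 to 0.716%). Its ratio of 1.88 (1.12 to 3.11) had an interval above 1 but lay under 2-fold. With DESeq2's size factors the ratio of miR-24 was 1.61 (0.960 to 2.66), an interval that included 1.

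The order of the members by count differed between the libraries below miR-23a, but much of it was not resolved. In the pregnant library miR-23a had 4.82 times the counts of the next member (3.30 to 7.24), and the other 4 members had 27 to 33 counts and could not be told apart, since the ratio of each to its neighbour was 1.04 to 1.14 with an interval that included 1. In the cyclic library miR-23a had 3.18 times (2.59 to 3.95) the counts of miR-27b, which had 1.86 times (1.36 to 2.56) those of miR-27a. miR-27a had 1.52 times (1.017 to 2.31) the counts of miR-24, whereas miR-24 and miR-23b did not differ beyond counting error (1.35, 0.832 to 2.23). With only the counts assigned to 1 precursor, an alternative added after the values were seen, the order of miR-24 and miR-27a turned, with 42 counts of miR-24 and 37 of miR-27a in cyclic vesicles, and they did not differ beyond counting error (miR-24 over miR-27a 1.14, 0.712 to 1.82). By count, miR-23b was second of the members in pregnant and last in cyclic vesicles, but neither place was resolved beyond counting error. Such ratios between miRNAs within 1 library also carry any preference of the ligation for some sequences, and the members were 20 to 23 bases long.

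How well the reads fitted the reference differed between members. The deposited counts give the reads that match the mature sequence exactly and the reads assigned to 1 precursor only, called unique here. miR-23a had 59 exact counts of 159 in the pregnant library, 37.1% (29.6 to 45.1%), and 118 of 379 in the cyclic library, 31.1% (26.5 to 36.1%). The odds of an exact match did not differ beyond counting error between the libraries (odds ratio 1.31, 0.866 to 1.96). miR-27b had 4 exact counts of 29 in the pregnant library, 13.8% (3.89 to 31.7%), and 37 of 119 in the cyclic library, 31.1% (22.9 to 40.2%), with an odds ratio of 0.355 (0.0842 to 1.14).

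The other 3 members had no exact match in either library. For miR-23b these were 0 of 33 counts in the pregnant library, which allows a share of up to 9.09% (here 3 counts of the total, not a Clopper-Pearson limit), and 0 of 31 in the cyclic library, up to 9.68%. For miR-27a they were 0 of 27 in pregnant vesicles (up to 11.1%) and 0 of 64 in cyclic vesicles (up to 4.69%). For miR-24 they were 0 of 28 in pregnant vesicles (up to 10.7%) and 0 of 42 in cyclic vesicles (up to 7.14%). A lack of exact matches was common, as it held for 41 of the 54 miRNAs of the pregnant and 57 of the 80 of the cyclic library. The call of miR-23b therefore rests on reads of which none was an exact match to the cattle sequence. A single base at position 19 and the extra 3′ base separate miR-23b from miR-23a, which had 100 inexact counts in pregnant and 261 in cyclic vesicles, and the counts do not show which base the reads carried there. The same limit holds for miR-27a, also without an exact match. Its paralog miR-27b had 25 inexact counts in pregnant and 82 in cyclic vesicles.

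All counts of miR-23a, miR-23b and miR-24 were unique in both libraries, whereas those of the miR-27 pair were not. For miR-24, unique means that the counts were listed under mir-24-2 alone, which does not show from which gene copy the reads came. Of the miR-27a counts 21 of 27 in pregnant and 37 of 64 in cyclic vesicles were unique, a share of 77.8% for pregnant and 57.8% for cyclic vesicles. Of the miR-27b counts 23 of 29 in pregnant and 93 of 119 in cyclic vesicles were unique, a share of 79.3% for pregnant and 78.2% for cyclic vesicles. The counts that were not unique came to nearly the same number under both names, 6 for miR-27a and 6 for miR-27b in the pregnant library, and 27 for miR-27a and 26 for miR-27b in the cyclic library. The table does not say whether these are the same reads entered under both names. If they were taken once in the sum of the members alone, the 5 members would have 9.61% of the mature miRNA counts in pregnant and 7.69% in cyclic vesicles. Here the total was left as it was, although only 74.8% of it was unique in pregnant and 74.3% in cyclic vesicles. These values therefore do not show what the share would be if all such counts were taken once.

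**Figure D2:**
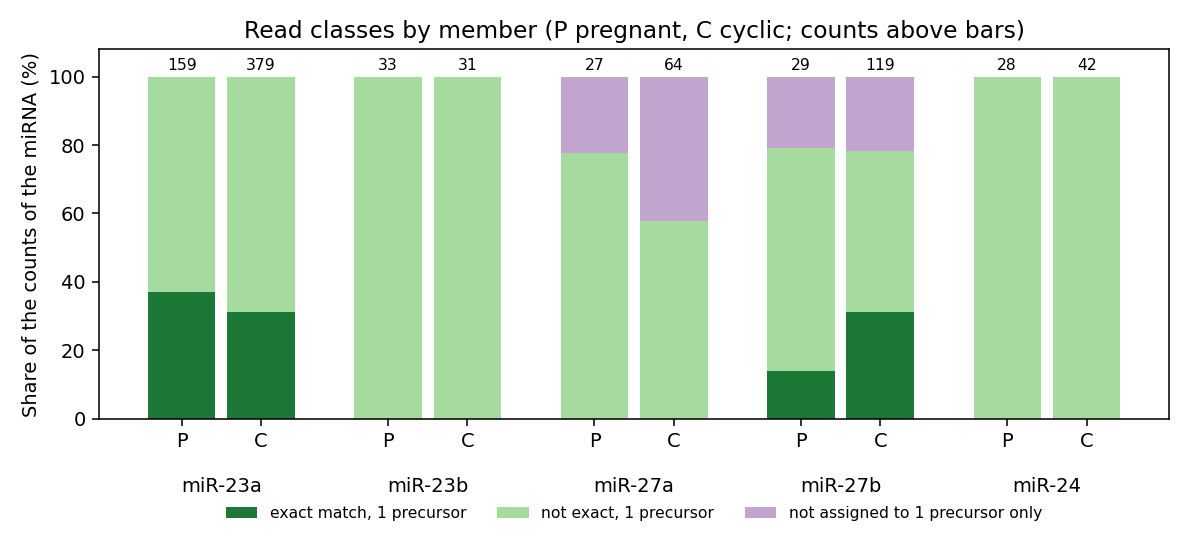
Percent of each member's counts (vertical axis) that matched the mature sequence exactly (dark green), did not match exactly but were assigned to 1 precursor (light green), or were not assigned to 1 precursor only (purple), in the pregnant (P) and the cyclic library (C), with total counts above the bars. Exact matches appear for miR-23a and miR-27b only, and purple counts for the miR-27 pair only.

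Of the 5 members, 1 passed the criteria for a difference between the libraries. A miRNA was called higher or lower where its ratio was at least 2-fold and the exact conditional binomial 95% interval of the ratio excluded 1. miR-23b was called higher, with a ratio of 3.002 (1.78 to 5.07), and no member was called lower. Of all 81 miRNAs 6.17% were called higher and 2.47% lower by the same rule. An interval above 1 at any fold was found for miR-23b and miR-24, and for 13.6% of all 81, and an interval below 1 for no member and for 7.41% of all. The call of miR-23b stood after DESeq2 scaling (2.57, 1.52 to 4.34) and after TMM scaling (2.69, 1.60 to 4.55). With unique counts its ratio was 2.98 (1.77 to 5.03), but all miR-23b counts were unique, so that only the library totals changed. Unique counts therefore cannot show whether reads of miR-23a were counted as miR-23b. Relative to all reads of the library the call was lost and the direction turned (0.843, 0.501 to 1.42). With at least 50 counts in either library miR-23b was not among the miRNAs compared.

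The members were spread over almost the whole range of ratios. Among the 53 miRNAs listed in both libraries miR-23b had the 2nd highest ratio, miR-24 the 6th, miR-27a the 24th, miR-23a the 25th and miR-27b the 49th. Their log2 ratios ran between -0.54 for miR-27b and 1.59 for miR-23b, against -1.07 to 1.98 over all 53. The median of the members was 0.25 and that of all 53 was 0.22. The members as a group therefore lay in the middle of the miRNAs listed in both libraries, with miR-23b and miR-27b near the opposite ends.

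**Figure D3:**
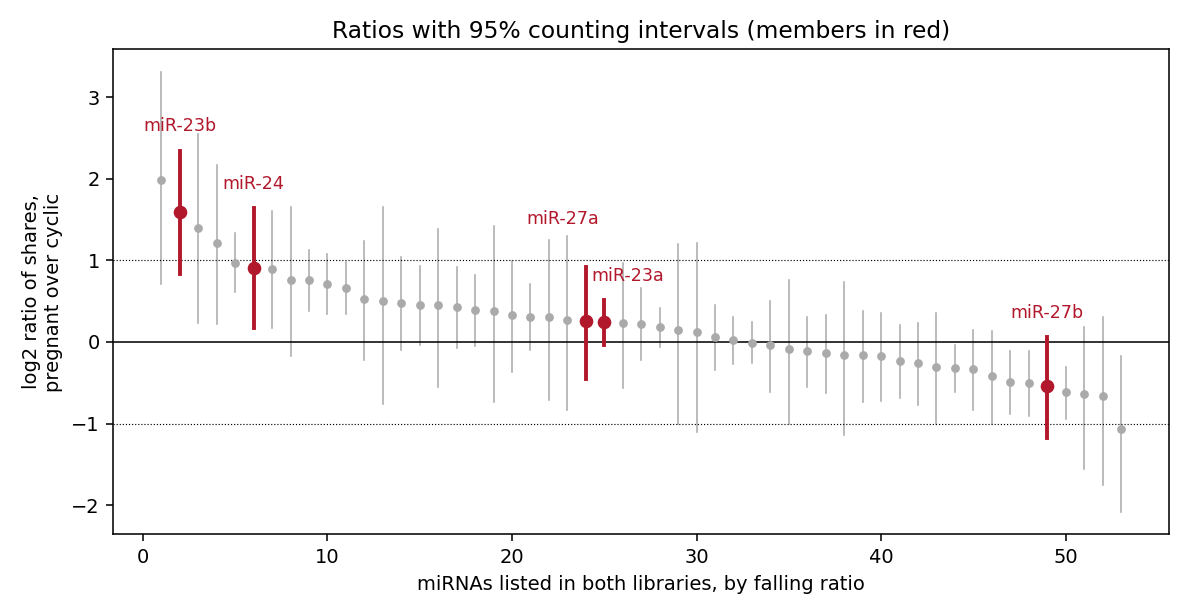
Log2 ratio of the share of mature miRNA counts, pregnant over cyclic (vertical axis, dotted lines at 2-fold), for the 53 miRNAs listed in both libraries in falling order (horizontal axis), with 95% counting intervals and the members in red. miR-23b lies 2nd from the top at 1.59, miR-23a and miR-27a lie in the middle at 0.24 and 0.25, and miR-27b lies 49th at -0.54.

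Depth set what could be called. At the 31 cyclic counts of miR-23b, equal shares would give 11.0 pregnant counts, and 22 or more were needed for a call of higher. For miR-24, with 42 cyclic counts, 30 were needed and 28 were found. A call of lower could not be reached by miR-23b or miR-24 at all, because counts under 10 are listed as 0. For miR-27b, 21 or fewer pregnant counts would have been called lower and 29 were found. miR-27a needed 11 or fewer counts for a call of lower and 46 or more for a call of higher, so that only large differences of it could show.

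The split of counts within a pair of members does not depend on how the libraries are scaled. Splits were compared as the odds of the first member in the pregnant library over those in the cyclic library, with an exact conditional 95% interval, for 7 splits in all and with no test.

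The a cluster mates stood in nearly the same proportion in both libraries. miR-23a had 5.89 times the counts of miR-27a in the pregnant library and 5.92 times in the cyclic library, an odds ratio of 0.994 (0.599 to 1.69). With unique counts only, miR-23a had 7.57 times the counts of miR-27a in pregnant and 10.2 times in cyclic vesicles (odds ratio 0.739, 0.407 to 1.37), so the near equality of the split held for all counts and not for unique counts, though both intervals included 1. None of the miR-27a counts in this split was an exact match.

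The b cluster mates were split differently. miR-23b had 1.14 times the counts of miR-27b in the pregnant library and 0.261 times in the cyclic library. The odds ratio of 4.37 had an interval of 2.199 to 8.66, and with unique counts it was 4.30 (2.09 to 8.89). In the pregnant library miR-23b made up 53.2% (40.1 to 66.0%) of the pair and in the cyclic library 20.7% (14.5 to 28.0%). Of the 7 splits this odds ratio lay farthest from 1. It rests on the same miR-23b counts as the call of miR-23b, without an exact match among them. The split of miR-23b against miR-23a rests on these counts too, so these are not separate results.

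The odds of the b form lay on opposite sides of 1 in the 2 seed families. miR-23b was 17.2% (12.1 to 23.3%) of the miR-23 counts in the pregnant library and 7.56% (5.19 to 10.6%) in the cyclic library, an odds ratio of 2.54 (1.45 to 4.44). miR-27b was 51.8% (38.0 to 65.3%) of the miR-27 counts in the pregnant library and 65.0% (57.6 to 71.9%) in the cyclic library. Its odds ratio of 0.578 had an interval that included 1 (0.302 to 1.11), but with unique counts, which leave out the counts that may stand under both names, it was 0.436 (0.204 to 0.940). The b form was thus the minor member of the miR-23 family in both libraries, and its share of that family was higher in the pregnant library. Neither miR-23b nor miR-27a had an exact match, so both paralog splits rest on how inexact reads were assigned. Unique counts cannot show whether reads of miR-27b were counted as miR-27a.

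By seed family, the proportion of miR-23 to miR-27 was higher in the pregnant library with all counts, in a split added after the values were seen. This split draws on the same miR-23b counts too, none of them an exact match. The miR-23 pair had 192 counts in pregnant and 410 in cyclic vesicles, a ratio of shares of 1.32 (1.11 to 1.57), and the miR-27 pair had 56 in pregnant and 183 in cyclic vesicles, a ratio of 0.863 (0.628 to 1.17). There were 3.43 miR-23 counts per miR-27 count in pregnant and 2.24 in cyclic vesicles (odds ratio 1.53, 1.07 to 2.203). With unique counts this became 1.38 (0.932 to 2.08), an interval that included 1, and with exact matches, which only miR-23a and miR-27b had, 4.62 (1.54 to 18.6). miR-24 had 0.50 counts per miR-27 count in pregnant and 0.230 in cyclic vesicles (odds ratio 2.18, 1.18 to 3.96), and against the miR-23 family its odds ratio was 1.42 (0.823 to 2.43). Summed by cluster, with miR-24 left out, the ratios were nearly equal. miR-23a plus miR-27a had a ratio of 1.18 (0.992 to 1.41) and miR-23b plus miR-27b one of 1.17 (0.853 to 1.58). The sum of the b cluster joins ratios on opposite sides of 1, 3.002 for miR-23b and 0.687 for miR-27b, so it does not show that the clusters were alike.

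**Figure D4:**
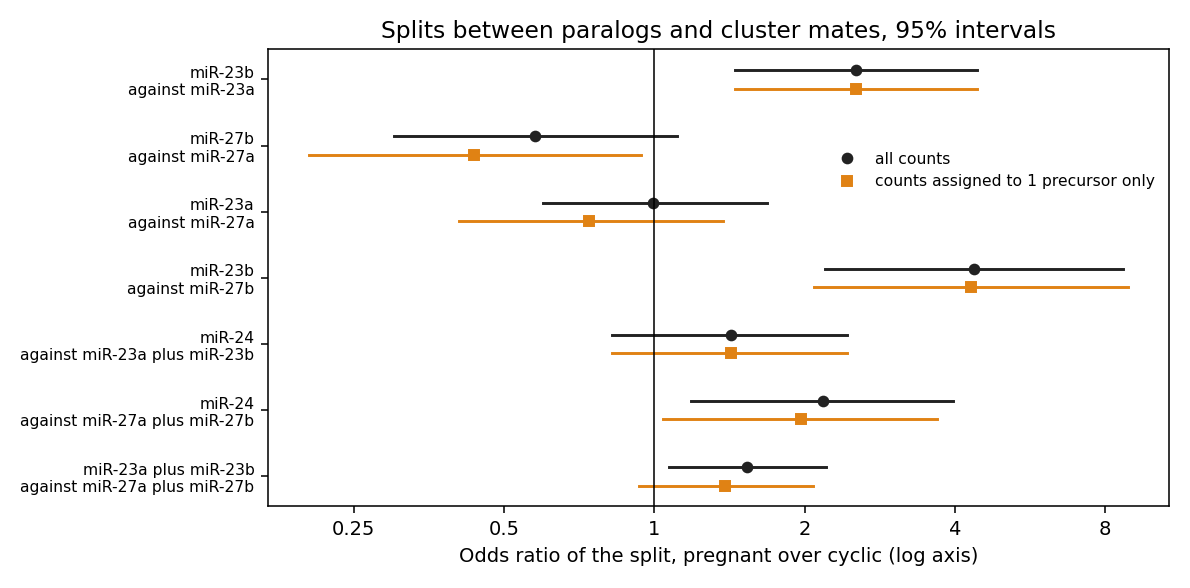
Odds ratio of each split between members, pregnant over cyclic (horizontal log axis), with exact conditional 95% intervals, for all counts (black circles) and for counts assigned to 1 precursor only (orange squares). miR-23b against miR-27b lies at 4.37 and 4.30, miR-23a against miR-27a at 0.994 and 0.739, and the paralog splits of miR-23 and miR-27 lie on opposite sides of 1.

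Relative to all reads in place of mature miRNA counts, the direction of 4 of the 5 members turned and that of miR-27b did not. This scaling shifts every log2 ratio by -1.83, against -0.16 for TMM and -0.22 for DESeq2's size factors, and all 5 members then had a ratio below 1. miR-27b was then at 0.193 (0.124 to 0.292), miR-23a at 0.332 (0.274 to 0.401) and miR-27a at 0.334 (0.205 to 0.532), and these 3 were called lower, as were 71.6% of all 81 miRNAs. miR-24 was at 0.528 (0.315 to 0.872) and miR-23b at 0.843 (0.501 to 1.42), which included 1. The share of reads that matched a cattle miRNA was 3.14% in pregnant and 10.8% in cyclic vesicles. Relative to these annotated reads the shift was only -0.047. The shift of -1.83 is thus set by the totals of the libraries, mostly by this share. It is the same for every miRNA and is no separate result on the members. Why the annotated share differed was not tested.

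**Figure D5:**
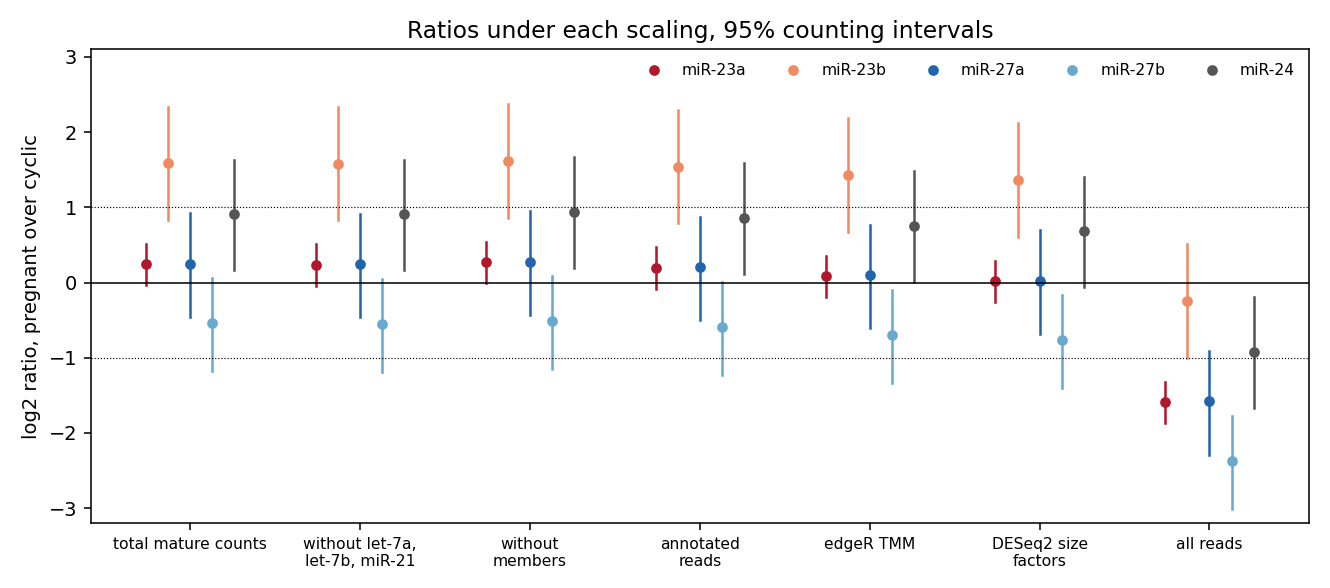
Log2 ratio of each member, pregnant over cyclic (vertical axis, dotted lines at 2-fold), under 7 scalings of the libraries (horizontal axis), with 95% counting intervals. Each scaling moves all members by the same amount, so their order is fixed, and relative to all reads every member lies below 0.

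The miRNAs most like each member were sought by the distance of log2 shares over the 2 libraries, which is a likeness of level and ratio over 2 points only. miR-26a (136 counts in pregnant and 378 in cyclic vesicles) was nearest to miR-23a, at a distance of 0.23, followed by miR-21 at 0.40. miR-339a, with 28 counts in pregnant and 63 in cyclic vesicles, was nearest to miR-27a (0.06). miR-30c, with 29 counts in pregnant and 44 in cyclic vesicles, was nearest to miR-24 (0.08). miR-19b was nearest to miR-27b (0.25). miR-23b lay farthest of the members from its nearest miRNAs, miR-30c at 0.54 and miR-205 at 0.80. These distances leave out counting error, and the ratio intervals of miR-23b (1.78 to 5.07) and miR-30c (1.12 to 3.04) overlapped.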

How the data were processed

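RNA of extracellular vesicles from ULF of 4 pregnant and 4 cyclic day 14 ewes was pooled into 1 library each. The authors ran their Ion Torrent reads through CLC Genomics Workbench in its small RNA mode (15 to 55 bp, miRBase release 19 for cattle, 10 or more copies, grouped by mature miRNA). The deposited values are raw read counts, not normalized, and for each count the part that matched exactly and the part assigned to a single precursor. Numbers of reads and annotated reads were taken from the annotation reports deposited beside them. Columns of the authors' fold changes and differences were not used, nor were 6 columns that belong to no mapped sample.

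Shares, ratios and odds ratios with exact 95% intervals were computed in SciPy 1.17.1 and pandas 2.3.3 under Python 3.11.15. The printed odds ratio is the sample value. For a miRNA listed at 0, a bound of 9 copies was used. With 1 library per group no test was made. Alternatives were all reads, annotated reads, edgeR 4.0.16 TMM, DESeq2 1.42.0 size factors (R 4.3.3), totals without miR-21, let-7a and let-7b or without the members, exact or unique counts, minimums of 20 and 50 counts, a floor of 3 copies, a 1.5-fold criterion and the second deposited table. The code for ratios and calls was checked on simulated counts at the libraries' own depth and at 10 times that depth. At their own depth part of the simulated differences was not called, and no error rate was derived for the calls reported. Named miRNAs were the members and, for each, the 2 other miRNAs nearest in level, and of the list of vessel miRNAs only those past the criteria. The members and lists were chosen with earlier results of these data known. Sums by family and by cluster, the split of miR-23 against miR-27, and miR-27 counts taken once were added after the values were seen.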

Additional observations from a re-analysis of the deposited data

How the results depend on the processing

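No paired analysis was possible because each group has 1 library. Relative to all reads of the library, ratios fell below 1 for miR-23b (0.843), miR-23a (0.332), miR-24 (0.528), miR-27a (0.334), miR-23a plus miR-27a (0.333), miR-23b plus miR-27b (0.327), the miR-23 pair (0.371) and all 5 members (0.344), and miR-27b was called lower (0.193). The numbers of members called higher and lower were then 0 and 3, and of all 81 miRNAs 0 and 58. This scaling multiplies each ratio by the same factor. With DESeq2's size factors miR-23b plus miR-27b turned to 0.997. With exact matches only, which left 2 members and 13 miRNAs, miR-27b was called lower (0.272, from 4 counts in pregnant and 37 in cyclic vesicles), 0 members were called higher and 1 lower, and of all miRNAs 2 and 1. With unique counts 2 miRNAs were called higher and 1 lower, and the odds ratio of miR-27b against miR-27a was 0.436, with an interval below 1. With at least 20 counts in either library 2 miRNAs were called higher, and with at least 50 counts 0 miRNAs and 0 members, where miR-23b and the other miRNAs called higher were no longer compared. A floor of 3 copies gave 6 miRNAs called lower, and a 1.5-fold criterion 11 called higher, 2 of them members. Each of the 5 members' other alternatives kept direction and call, at ratios of 1.01 to 1.26 for miR-23a, 2.57 to 3.06 for miR-23b, 1.018 to 1.59 for miR-27a, 0.588 to 0.701 for miR-27b and 1.61 to 1.92 for miR-24. The second deposited table held the same counts, and the minimums of 20 and 50 counts left the library totals unchanged. These alternatives could therefore not alter the ratio of a member that was still compared. With 27 to 33 counts, the members other than miR-23a have wide intervals in the pregnant library.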

Other observations

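Of 15 other miRNAs of vessels and angiogenesis, 8 were listed, all of them in the cyclic and 5 in the pregnant library. Over these 5 the median log2 ratio was 0.30, against 0.25 for the members and 0.22 for all 53 miRNAs listed in both libraries. miR-92a, a miRNA that restrains vessel growth in mice, was the 1 called higher, with 14 counts in pregnant and 15 in cyclic vesicles (ratio 2.63, 1.18 to 5.85), and none was called lower. That is 1 of the 8 listed, beside 6.17% of all 81 miRNAs called higher and 2.47% called lower. With at least 20 counts in either library miR-92a was not among the miRNAs compared.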
